A study of Mus musculus with 9 samples.

Results

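The IGF-binding proteins are 7 secreted proteins, encoded by Igfbp1 to Igfbp7, and their RNA was measured in mouse liver on 9 expression arrays. The members were chosen by name: every probe set that the platform annotation gives to 1 gene, that gene being 1 of the 7. This found all 7 genes among the 12393 that the array names, with 15 of the 22626 probe sets that are not array controls. The family was picked with earlier results of these arrays known, in which Igfbp1 was far higher in livers of tumour-bearing mice on vehicle than in livers without tumour. That comparison is therefore described for the members by levels, differences and a count of probe sets under the threshold, with no p-value printed. The count for Igfbp1 was fixed by the choice, and it supports nothing.

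Each of 3 groups had 3 arrays. NT-Co mice had no tumour and received vehicle. T-Co mice carried a tumour and received vehicle, and T-TSU mice carried a tumour and received TSU68. The tumour was TK-4, a human colon cancer, placed in the cecal wall of male BALB/c nu/nu mice aged 6 weeks. This athymic strain lacks mature T cells, so the mice have no normal T cell response to the tumour. TSU68, an oral inhibitor of VEGF, PDGF and FGF receptor kinases, was given at 400 mg/kg per day in divided doses. Treatment began 7 days after implantation and lasted 1 week. The liver was a separate organ from the implanted cecum. For the NT-Co mice, the sources used here do not give strain, sex, age or any operation, and for all mice they do not give the feeding state or the hour of collection. A difference in any of these cannot be told apart from the presence of the tumour. The labels number the samples but do not say that each is a separate animal, so each p-value reflects only how far these samples spread, which may be technical.

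Array medians lay between 107 and 119 intensity units, and no 2 arrays held the same values. RNA quality can be read from the actin control probe sets, as their 3' signal over their 5' signal. NT-Co arrays had ratios of 2.26 to 3.14, against 1.88 to 2.10 for T-Co and 1.79 to 2.16 for T-TSU. This shift goes with every comparison with NT-Co below, and its part in those results was not tested. T-Co replicate 13 was an outlying array on the second principal component, with a score of 48.7 against scores of -31.0 to 17.7 elsewhere. Of 10 hepatocyte markers 9 were on the array, all of them above the filter, so the samples carried the labelled tissue.

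IGF-binding proteins hold IGF-I and IGF-II in the circulation and in tissues and limit their access to the IGF receptor. Most circulating IGF-I comes from hepatocytes under growth hormone control and travels in a complex with IGFBP-3 or IGFBP-5 and the acid-labile subunit, encoded by Igfals. IGFBP-1 works on a shorter time scale. Its gene is transcribed in hepatocytes during fasting, stress and low insulin, and insulin shuts it off through FOXO factors.

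The promoter of Igfbp1 is shown because this gene carried most of the family's difference between groups. In human and rat, FOXO factors act on the IGFBP1 gene through an insulin response element, and HNF1 binds nearby. The sequence is from RefSeq and covers the 250 bases before the annotated start, chr11:7197537-7197786 on the plus strand of GRCm38.p6. Capitals mark the insulin response core CAAAACA, and the HNF1 half-site GTTAAT read on the minus strand.
Igfbp1: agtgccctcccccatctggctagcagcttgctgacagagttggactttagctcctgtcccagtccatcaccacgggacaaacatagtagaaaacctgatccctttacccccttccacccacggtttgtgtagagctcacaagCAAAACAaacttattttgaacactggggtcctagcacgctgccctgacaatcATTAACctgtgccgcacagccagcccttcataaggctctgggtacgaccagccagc
The insulin response core lay 102 to 108 bases before the start and the HNF1 half-site 51 to 56 bases before it. Searched on both strands, CAAAACA was present in 5.56% and GTTAAT in 6.43% of 32851 promoter windows of this length in RefSeq. Of the 7 members, all of which had a window, Igfbp1 was the 1 that held CAAAACA and the 1 that held GTTAAT. The forkhead core GTAAACA (3.17% of windows) was in 0 of the 7, and the STAT site TTCNNNGAA (7.02%) was in 0 of the 7. A match describes the letters and is not evidence of binding.

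Igfbp1 was measured by 1 probe set (1418918_at). Its intensity was 247, 267 and 1088 in NT-Co replicates 8, 10 and 11, and 5907, 15972 and 23565 in T-Co replicates 9, 10 and 13. In T-TSU replicates 2, 12 and 14 it was 1609, 4807 and 3319. Every T-Co array was thus above every T-TSU array, and every T-TSU array above every NT-Co array. The group means were 534 ± 480 for NT-Co, 15150 ± 8860 for T-Co and 3245 ± 1600 for T-TSU (SD, n = 3). On the scale of log2(intensity + 7.93), which understates changes of dim genes, T-Co lay 4.94 ± 0.59 (SE) above NT-Co, a 30.7-fold difference. No other of the 15838 probe sets above the intensity filter had a larger rise, which describes how the gene was picked and is no test.

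In T-TSU, Igfbp1 differed from T-Co by -2.14 ± 0.59 on the log2 scale, which is 4.41-fold lower. This difference did not pass (limma adjusted p = 0.219, unadjusted p = 0.00329), and its 95% interval ran from -3.42 to -0.86. T-TSU remained 2.80 ± 0.59 above NT-Co, a 6.96-fold difference that passed (limma adjusted p = 0.0198). That call did not hold without NT-Co replicate 8 (adjusted p = 0.0891), NT-Co replicate 10 (0.0772), T-TSU replicate 12 (0.0958) or T-TSU replicate 14 (0.0840), nor without the intensity trend (0.0956) or with a robust trend (0.134). The T-Co arrays and the NT-Co arrays in these 2 comparisons are those in which Igfbp1 had been seen to differ. The groups thus stood in the order T-Co, T-TSU, NT-Co. Between T-Co and T-TSU the difference did not pass the test.

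Within a group Igfbp1 varied more than almost any gene of like brightness. Its within-group SD was 1.02 on the log2 scale, above 97.4% of all probe sets tested and above 99.4% of the 1000 nearest to it in mean intensity. The median SD of all probe sets was 0.29. NT-Co replicate 11 was far above the other NT-Co arrays for Igfbp1.

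Igfbp2 encodes another binding protein that hepatocytes secrete. Its intensity (1454159_a_at) was 4514, 5042 and 4051 in NT-Co, 7594, 8621 and 4180 in T-Co replicates 9, 10 and 13, and 4304, 4819 and 5099 in T-TSU. T-Co replicates 9 and 10 were above all other arrays, while T-Co replicate 13, the highest array for Igfbp1, lay within the range of NT-Co. The difference of T-Co from NT-Co was 0.52 ± 0.22 on the log2 scale, and 0.84 without T-Co replicate 13. T-TSU differed from T-Co by -0.46 ± 0.22 (limma adjusted p = 0.490; interval -0.93 to 0.01) and from NT-Co by 0.07 ± 0.22 (0.928; interval -0.41 to 0.54), and neither difference passed. The first was -0.77 without T-Co replicate 13 (adjusted p = 0.0704) and -0.25 without T-Co replicate 10.

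**Figure D1:**
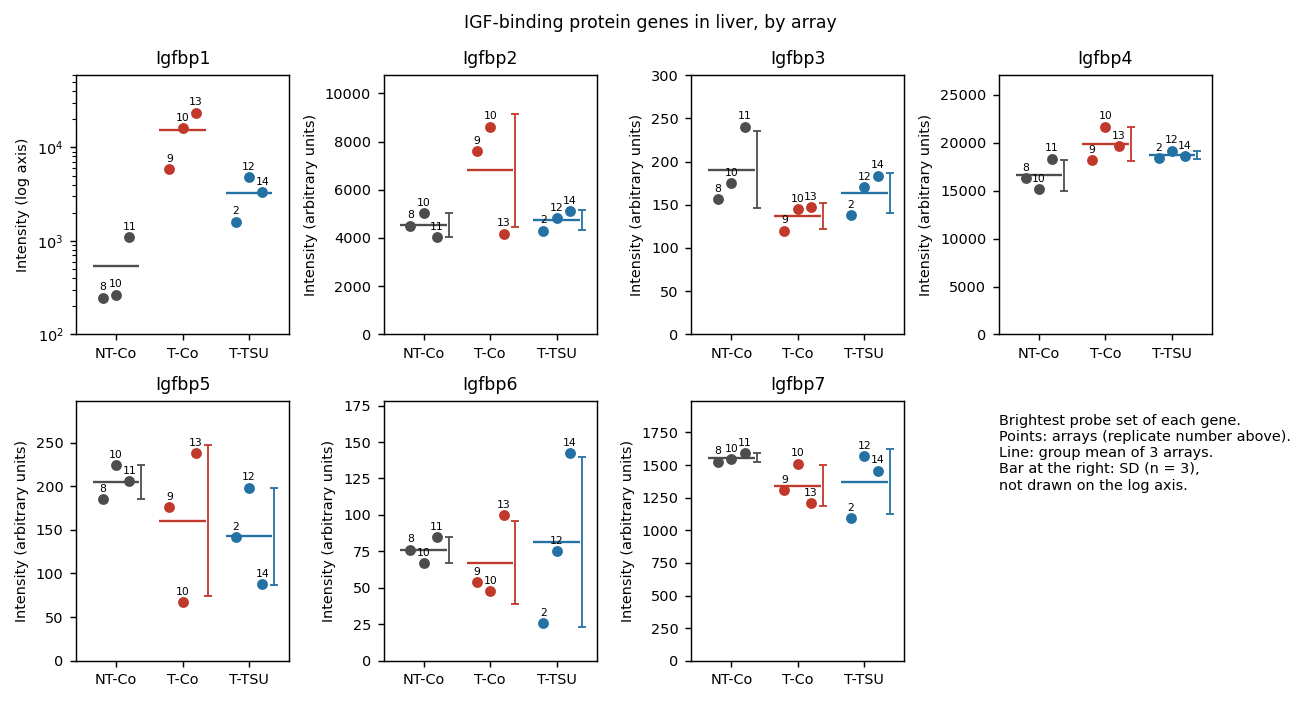
Intensity of the brightest probe set of each of the 7 genes on each array, with the group mean as a line and, on linear axes, the SD of 3 arrays as a bar; the Igfbp1 axis is logarithmic. Igfbp1 runs from 247 to 23565 with no overlap between groups, T-Co replicate 13 is highest for Igfbp1 but at the NT-Co level for Igfbp2, and Igfbp4 stays between 15135 and 21680.

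Igfbp3 and Igfbp5 encode the 2 binding proteins that join the long-lived complex with IGF-I and the acid-labile subunit. In rat liver Igfbp3 is made by non-parenchymal cells rather than by hepatocytes. Igfbp3 (1423062_at) had intensities of 156, 175 and 241 for NT-Co, 120, 145 and 147 for T-Co, and 138, 170 and 184 for T-TSU. Every T-Co array was below every NT-Co array, and T-TSU overlapped with both. T-Co differed from NT-Co by -0.43 ± 0.23, T-TSU from T-Co by 0.24 ± 0.23 (limma adjusted p = 0.761) and T-TSU from NT-Co by -0.19 ± 0.23 (0.751).

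Igfbp5 was dim. Its brighter probe set (1452114_s_at) read 185, 224 and 206 for NT-Co, 176, 67.1 and 238 for T-Co, and 142, 198 and 87.4 for T-TSU. The groups overlapped, and the low arrays were T-Co replicate 10 and T-TSU replicate 14. The other probe set (1422313_a_at) lay between 14.8 and 82.6 and had its low arrays elsewhere, in T-Co replicate 13 and T-TSU replicate 2. Differences of T-TSU from T-Co were -0.07 ± 0.40 and -0.03 ± 0.65, and intervals as wide as -1.44 to 1.37 leave Igfbp5 unresolved on these arrays.

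Igfbp4 encodes a binding protein that inhibits IGF action until the protease PAPP-A cleaves it. It had 6 probe sets, and they fell into a bright and a less bright set. The 4 bright ones had means of 15330 to 18390. Of these, 1437405_a_at lay between 15459 and 17891 over all 9 arrays, and 1423756_s_at between 15135 and 21680. The bright 1423757_x_at ran from 11192 to 18234, and every T-Co and T-TSU array was above every NT-Co array there. The less bright 1421991_a_at read 1626, 1763 and 1622 for NT-Co, 1847, 3780 and 2652 for T-Co, and 1370, 1971 and 2664 for T-TSU. Every T-Co array was above every NT-Co array there, T-Co replicate 10 was highest, and T-TSU spanned both. T-Co differed from NT-Co by 0.66 ± 0.26 for this probe set, by 0.40 ± 0.16 for 1421992_a_at, and by 0.09 ± 0.09 to 0.39 ± 0.12 for the 4 bright ones. All 6 differences were above 0.

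T-TSU was below T-Co for all 6 Igfbp4 probe sets, by 0.06 to 0.45 on the log2 scale, and none passed (lowest limma adjusted p = 0.578). After quantile normalization of the arrays the 4 bright probe sets turned to differences of 0.01 to 0.04 above 0. Against NT-Co, T-TSU was above by 0.03 to 0.33, and none passed (lowest adjusted p = 0.166). Suffixes matter here: a probe set ending in _s_at or _x_at can hold probes that match other transcripts, while _a_at marks several transcripts of 1 gene. The 6 share a target, so they are not independent measures.

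Igfbp6, whose protein prefers IGF-II, was dim (1417933_at). It read 76.2, 67.2 and 84.7 for NT-Co, 54.1, 47.8 and 99.8 for T-Co and 26.0, 75.4 and 143 for T-TSU. NT-Co was the narrowest group, and both tumour groups spread above and below it. No difference was resolved: T-Co from NT-Co -0.22 ± 0.49, T-TSU from T-Co 0.06 ± 0.49 (limma adjusted p = 0.979), T-TSU from NT-Co -0.15 ± 0.49 (0.926).

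Igfbp7 encodes a protein of vessel walls that binds IGFs only weakly. Its brightest probe set (1423584_at) read 1526, 1545 and 1594 for NT-Co, 1309, 1512 and 1209 for T-Co, and 1093, 1569 and 1458 for T-TSU. All T-Co arrays were below all NT-Co arrays, by 0.22 ± 0.16 on the log2 scale, and T-TSU spread over both. A dimmer probe set (1437804_at) read 236, 121 and 172 for NT-Co, 42.9, 27.8 and 35.9 for T-Co, and 23.6, 96.2 and 50.6 for T-TSU. There every array of both tumour groups was below every NT-Co array. The 3 T-Co arrays and the lowest T-TSU array lay near or under the filter of 42.0, so the sizes that follow are uncertain. T-Co differed from NT-Co by -2.05 ± 0.45 on the log2 scale, and T-TSU from NT-Co by -1.62 ± 0.45, which did not pass (limma adjusted p = 0.0648; 0.0387 without T-TSU replicate 12). The third probe set (1423585_at) had a mean of 39.9, under that filter, and was not tested. The 2 tested probe sets of Igfbp7 thus had the same sign against NT-Co, and how far they differed in size cannot be given with the dimmer one so near background.

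**Figure D2:**
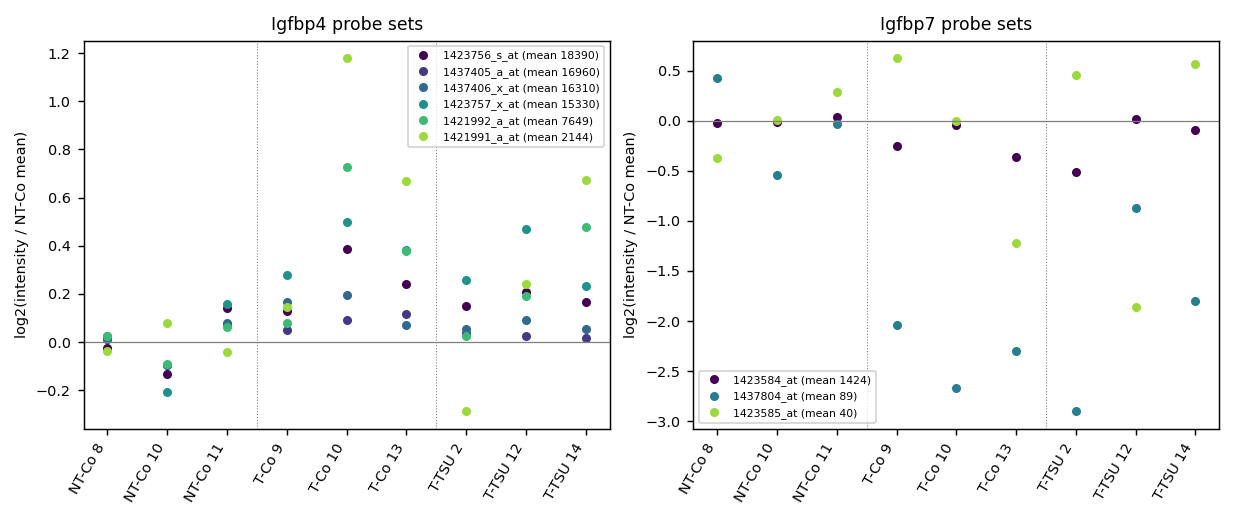
Intensity of each probe set on each array as log2 of its ratio to its own NT-Co mean, without a pseudocount, for the 6 probe sets of Igfbp4 and the 3 of Igfbp7. Of the Igfbp4 probe sets, 1421991_a_at rises most, in T-Co replicate 10. The bright 1423757_x_at is above its NT-Co arrays in all 6 tumour-bearing samples. For Igfbp7 the probe set with a mean of 1424 stays near 0 while 1437804_at is low in all 6 tumour-bearing samples.

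Across the family, 14 of 15 probe sets were above the filter and every gene had at least 1. Between T-Co and NT-Co, 2 of the 14 had a limma adjusted p under 0.05, Igfbp1 (higher, beside 4.19% of all probe sets) and 1437804_at of Igfbp7 (lower, beside 2.39%). In both directions together the share of all 15838 probe sets was 6.59%. This count describes the contrast in which Igfbp1 was picked, and nothing is read from it. It was 1 without NT-Co replicate 8 or NT-Co replicate 11, where Igfbp7 was no longer counted. It was 3 without T-Co replicate 9, and also 3 without T-Co replicate 13. Between T-TSU and T-Co, limma called 0 of the 14, beside 0.0505% of all probe sets (0.0379% higher and 0.0126% lower in T-TSU). At an unadjusted p under 0.05 there was 1 of 14, Igfbp1, beside 10.5% of all. Between T-TSU and NT-Co, 1 of the 14 passed, Igfbp1, beside 3.93% of all (2.56% higher in T-TSU).

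Groups did not overlap for 7 of the 14 probe sets between T-Co and NT-Co (27.0% of all probe sets), for 2 of 14 between T-TSU and T-Co (14.2%) and for 4 of 14 between T-TSU and NT-Co (24.3%). The 2 of the drug comparison were Igfbp1 and 1437405_a_at of Igfbp4, whose groups differed by -0.06 on the log2 scale. Both were lower in T-TSU (7.40% of all probe sets), and 0 were higher (6.76%). The median difference of the 14 probe sets was 0.12 between T-Co and NT-Co, where that of all probe sets was 0.01. It was -0.07 between T-TSU and T-Co (all, -0.01) and 0.05 between T-TSU and NT-Co (all, -0.000664). The tumour and drug comparisons share the T-Co arrays, so their opposite signs are not separate results.

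**Figure D3:**
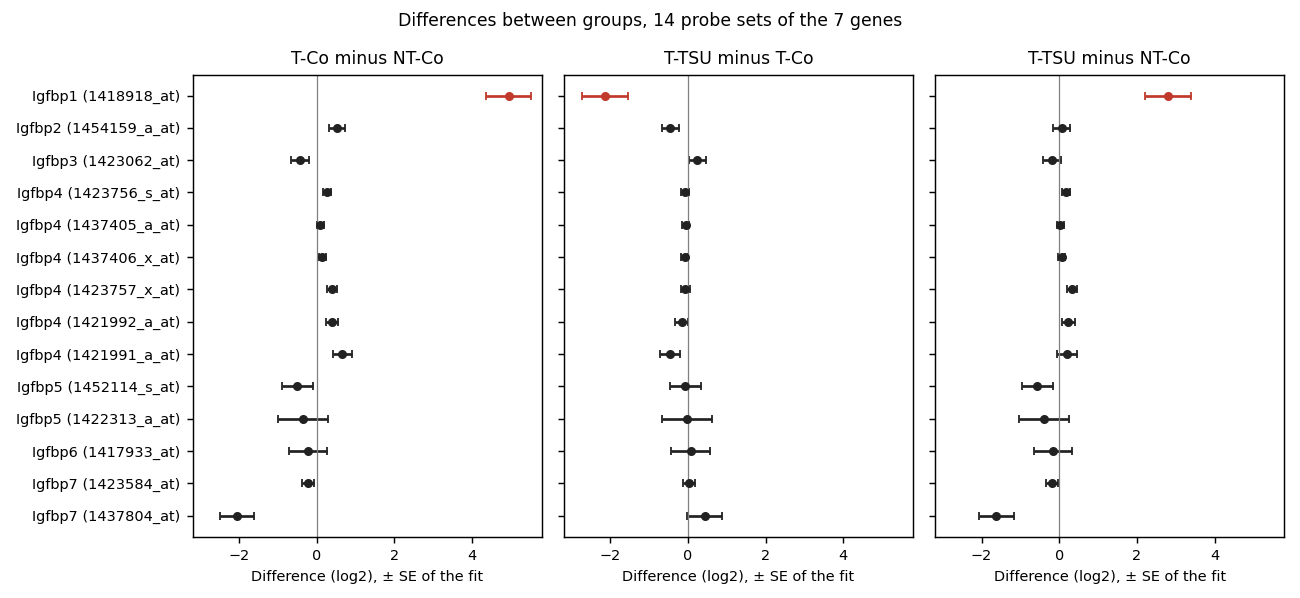
Differences between groups on the scale of log2(intensity + 7.93) for the 14 probe sets above the filter, with the SE of the limma fit as bars; Igfbp1 is in red. Igfbp1 lies at 4.94, -2.14 and 2.80 in the 3 panels, 1437804_at of Igfbp7 at -2.05, 0.43 and -1.62, and the other 12 lie between -0.57 and 0.66.

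The members differed in how they varied with Igfbp1. Over the 9 arrays, the correlation of Igfbp1 with the brightest probe set of Igfbp4 was 0.89, with Igfbp2 0.41, with Igfbp7 -0.34, with Igfbp3 -0.37, with Igfbp5 -0.33 and with Igfbp6 0.05. These values describe 9 arrays that share the group differences. When each array was taken as its deviation from its own group mean, Igfbp1 had a correlation of 0.92 with Igfbp3, 0.76 with Igfbp4, 0.52 with Igfbp6, 0.42 with Igfbp7, 0.06 with Igfbp5 and -0.40 with Igfbp2. All 6 Igfbp4 probe sets had correlations of 0.71 to 0.89 with Igfbp1 over the 9 arrays. Arrays high for Igfbp1 within their group were thus the ones high for Igfbp3, although the groups stood in opposite order for the 2 genes.

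Igfbp1 and Igfbp3 are neighbours. In GRCm38.p6 Igfbp1 lies on chromosome 11 from 7197787 to 7202546 and Igfbp3 from 7206086 to 7215498, so that 3540 bases separate them. Igfbp2 and Igfbp5 are a similar pair on chromosome 1, at 72824480 to 72852474 and 72858065 to 72874865, with 5591 bases between them. Within each pair the signs of the difference between T-Co and NT-Co were opposite, above 0 for Igfbp1 and Igfbp2 and below 0 for Igfbp3 and Igfbp5. For Igfbp5 the sign rested on single arrays: 1452114_s_at was at 0.0022 without T-Co replicate 10, and 1422313_a_at at 0.26 without T-Co replicate 13. Of the 10 other genes within 1000 kb of Igfbp1 that were tested, 0 were called by limma in any of the 3 comparisons. Their differences between T-Co and NT-Co ran from -0.05 to 0.48, where Igfbp1 differed by 4.94.

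The ligands, receptors and signalling genes of the IGF system were given by lists written with earlier results of these arrays known, with the brightest probe set standing for each gene. Igf1, the main liver-made ligand, had an intensity of 9705 ± 654 for NT-Co, 10410 ± 1020 for T-Co and 9998 ± 1590 for T-TSU (SD, n = 3). The groups overlapped, and T-Co differed from NT-Co by 0.10 ± 0.13 (limma adjusted p = 0.711). The other 2 probe sets of Igf1 differed by -0.26 ± 0.10 and 0.21 ± 0.12, and neither passed. Ghr, the growth hormone receptor, fell from 11290 ± 1600 in NT-Co to 6337 ± 1130 in T-Co, by 0.84 ± 0.16 (adjusted p = 0.00928; 0.0504 without NT-Co replicate 11 and 0.0616 without the intensity trend). In T-TSU it was at 11490 ± 1740, a difference of 0.86 ± 0.16 from T-Co that did not pass (0.0830; 0.0370 without T-TSU replicate 12). A second Ghr probe set also passed between T-Co and NT-Co (-0.77 ± 0.21), and the third did not (-0.40 ± 0.19).

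Igfals, the acid-labile subunit, had 1514 ± 273 for NT-Co, 1087 ± 142 for T-Co and 1377 ± 32.1 for T-TSU. Its difference between T-Co and NT-Co, -0.47 ± 0.16, did not pass (limma adjusted p = 0.101). Igf2r, the receptor that clears IGF-II, was at 280 ± 35, 415 ± 10.2 and 553 ± 28.1 in NT-Co, T-Co and T-TSU, with no overlap between groups. It rose between NT-Co and T-TSU by 0.97 ± 0.15 (adjusted p = 0.00476), and its second probe set by 0.70 ± 0.18 (0.0490). Between NT-Co and T-Co the brighter probe set missed the threshold (0.56 ± 0.15, adjusted p = 0.0502, and 0.0331 to 0.0910 over the planned settings that keep all arrays) and the second had the opposite sign (-0.08 ± 0.18). Igf1r, Igf2 and Insr were dim, with means between 23.3 and 70.8, and had no call in any comparison by limma.

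Of the insulin receptor substrates, Irs1 fell from 1094 ± 54.5 in NT-Co to 519 ± 123 in T-Co, by 1.09 ± 0.18 (limma adjusted p = 0.00406), and was at 566 ± 65.1 in T-TSU. Irs2, a fasting-induced gene in liver, rose by 2.02 ± 0.48 between NT-Co and T-Co (0.0261), from 38.9 ± 25.6, near background, so the size is uncertain. This call was lost without NT-Co replicate 11, T-Co replicate 10 or T-Co replicate 13 (highest adjusted p = 0.0818), without the intensity trend and with only the 2 groups. Pik3r1, a PI 3-kinase regulatory subunit, rose by 0.97 ± 0.20 in T-Co (0.0123; 0.0510 without NT-Co replicate 8) and by 1.33 ± 0.20 in T-TSU (0.00308) against NT-Co.

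**Figure D4:**
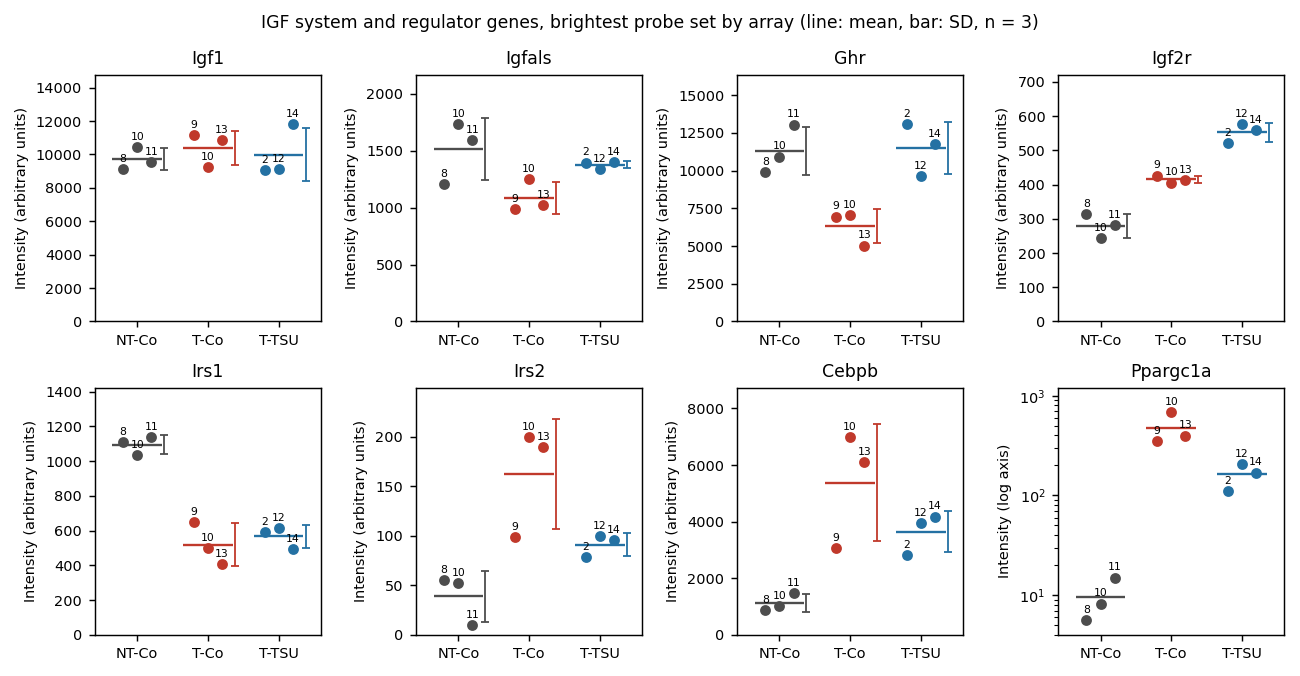
Intensity by array of 6 IGF system genes and of Cebpb and Ppargc1a, with the group mean as a line and, on linear axes, the SD of 3 arrays as a bar; the Ppargc1a axis is logarithmic. Igf1 overlaps between all groups, Ghr is lower in T-Co than in both other groups, Igf2r steps up from NT-Co to T-TSU, and Irs1 is lower in both tumour groups.

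Over all pathway lists, 103 genes were tested. Between T-Co and NT-Co 17 rose and 10 fell (26.2%, beside 6.59% of all probe sets), and between T-TSU and NT-Co 13 rose and 5 fell (17.5%, beside 3.93%). Between T-TSU and T-Co limma called 0 of them, 22 having an unadjusted p under 0.05, beside 10.5% of all probe sets. Without the intensity trend the first 2 counts were 14 and 6 in all. The 27 calls between T-Co and NT-Co numbered 15 when NT-Co replicate 8 was left out and 16 when NT-Co replicate 11 was. The 18 between T-TSU and NT-Co were 10 without NT-Co replicate 8, 8 without NT-Co replicate 11, 11 without T-TSU replicate 12 and 8 without T-TSU replicate 14. Between T-TSU and T-Co there was 1 call without T-Co replicate 10 and there were 3 without T-TSU replicate 12. The lists were written with earlier results of these arrays known, so an excess over all probe sets is no test. They also take the brightest probe set of each gene, while the share of all probe sets includes dimmer ones and several per gene.

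Proteases that cut binding proteins, and their inhibitors, had 1 of 12 genes higher and 0 lower between T-Co and NT-Co. It was Plg, plasminogen, by 0.44 ± 0.09 (limma adjusted p = 0.0147), a call lost without the filter, without the intensity trend, and without NT-Co replicate 8 or 10 (highest adjusted p = 0.106). The list's median was 0.07. Genes that share the IGF-binding domain, such as the CCN family, had 0 of 7 called and a median of 0.32. At an unadjusted p under 0.05 there were 3 of the 7, beside 22.3% of all probe sets. They were Crim1, higher by 0.77 ± 0.22 (limma adjusted p = 0.0549), and Ccn4 and Ccn1, lower by 1.79 (0.0823) and 0.84 (0.112). Ccn4 read 6.67, 9.34 and 48.9 in T-Co, near background, so its size is uncertain. Of the IGF2 mRNA-binding proteins, which bind RNA and not IGFs, Igf2bp3 was tested and differed by 0.62 ± 0.60.

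Transcription factors known to act on Igfbp1 in liver had 5 of 24 higher and 2 lower between T-Co and NT-Co, with a median of 0.27. Ppargc1a, a fasting-induced coactivator, rose by 4.76 ± 0.34 (limma adjusted p = 5.44e-05), from 9.61 ± 4.81 to 476 ± 180, so its NT-Co level was near background and the size is uncertain. Its 4 other probe sets differed by 1.29 to 2.08, and 2 of the 4 passed. Cebpb rose by 2.21 ± 0.29 (0.00122) and its relative Cebpd by 1.85 ± 0.30 (0.00397), both being induced by glucocorticoids and cytokines. Stat3, the transducer of interleukin-6, rose by 1.28 ± 0.15 (0.000860). Its second probe set overlapped, at 1196, 1424 and 1208 for NT-Co and 1274, 1670 and 1703 for T-Co. Foxa2 and Foxa1, forkhead factors that open liver enhancers, fell by 1.04 ± 0.19 (0.00712) and 1.42 ± 0.31 (0.0168; lost without NT-Co replicate 8, without T-Co replicate 9 or without the intensity trend). Their relative Foxa3 went the other way, higher by 0.74 (limma adjusted p = 0.0313), a call lost in 7 alternative settings.

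Between T-TSU and T-Co none of these 24 passed, and 6 had an unadjusted p under 0.05, beside 10.5% of all probe sets. Foxa2 differed by 0.90 ± 0.19 (limma adjusted p = 0.126), Ppargc1a by -1.49 ± 0.34 (0.158) and Foxa1 by 1.18 ± 0.31 (0.197). Against NT-Co, 5 of the 24 were higher in T-TSU and 0 lower. Ppargc1a (3.27 ± 0.34, limma adjusted p = 0.000471), Stat3 (0.96 ± 0.15, 0.00418) and Cebpb (1.71 ± 0.29, 0.00601; 0.0502 without the intensity trend) were higher. So were Ppara (1.59, 0.0122) and Foxa3 (0.90, 0.017), whose calls were lost in 3 and 5 alternative settings. The second probe set of Stat3 overlapped between these groups.

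Genes that rise with low insulin or fasting had 5 of 13 higher and 0 lower between T-Co and NT-Co, with a median of 0.83. Pck1, of gluconeogenesis, rose by 0.91 ± 0.15 (limma adjusted p = 0.00408). The calls of Cpt1a (0.83, adjusted p = 0.0431) and Tat (0.86, 0.0230) were lost in 12 and 6 alternative settings. The genes of this list below 0 were G6pc (-0.31), Sesn3 (-0.42), Pdk4 (-0.63) and Fgf21 (-0.67), and none of these passed. Genes that insulin raises had 0 of 6 higher and 2 lower, with a median of -0.44: Srebf1, the lipogenic factor, fell by 1.48 ± 0.26 (0.00599) and Angptl8 by 2.46 ± 0.54 (0.0193; lost without NT-Co replicate 10 or 11 or T-Co replicate 10, without the intensity trend and with a robust trend). Glucocorticoid targets had 5 of 7 higher and 0 lower, with a median of 1.41, led by Fkbp5, a cochaperone of the receptor (2.24 ± 0.37, 0.00434) and Per1 (2.10 ± 0.39, 0.00855). Sgk1 was below 0 (-0.61, 0.306). Between T-TSU and NT-Co this list had 3 higher and 1 lower, Sgk1 (-1.45, 0.0282; lost in 6 alternative settings). Between T-Co and NT-Co the calls of Dusp1 (1.76, 0.0147) and Tsc22d3 (1.19, 0.0287) were lost in 3 and 6 alternative settings. Amino acid stress genes had 1 of 7 higher and 0 lower (median 0.67), and hypoxia targets 1 of 8 higher and 2 lower (median -0.20). Some genes stand on several lists, and the lists are not separate results.

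The genes whose pattern was most like that of Igfbp1 were found by Pearson correlation over the 9 arrays among 9240 other genes. They were Aff4 (0.98), a transcription elongation factor subunit, Trp53inp1 (0.98), which p53 induces, Zfp281 (0.97), Mlxip (0.97), Tob2 (0.97) and Cebpd (0.97). After subtraction of group means their correlations with Igfbp1 were 0.83 to 0.96, which follows in large part from how they were chosen. Trp53inp1 read 418 to 776 for NT-Co, 3319 to 8319 for T-Co and 1350 to 3577 for T-TSU. Most opposite were Sgpp1, Lonp2 and Mtif2, each at -0.96. Over all genes the median correlation was -0.01, 3.78% lay above 0.8 and 3.24% below -0.8. Cebpb was at rank 8 and Ppargc1a at rank 9. When 1 array was left out, 3 to 6 of the 6 most similar genes stayed among the first 6, the lowest count being without T-Co replicate 13, T-TSU replicate 2 or T-TSU replicate 14.

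**Figure D5:**
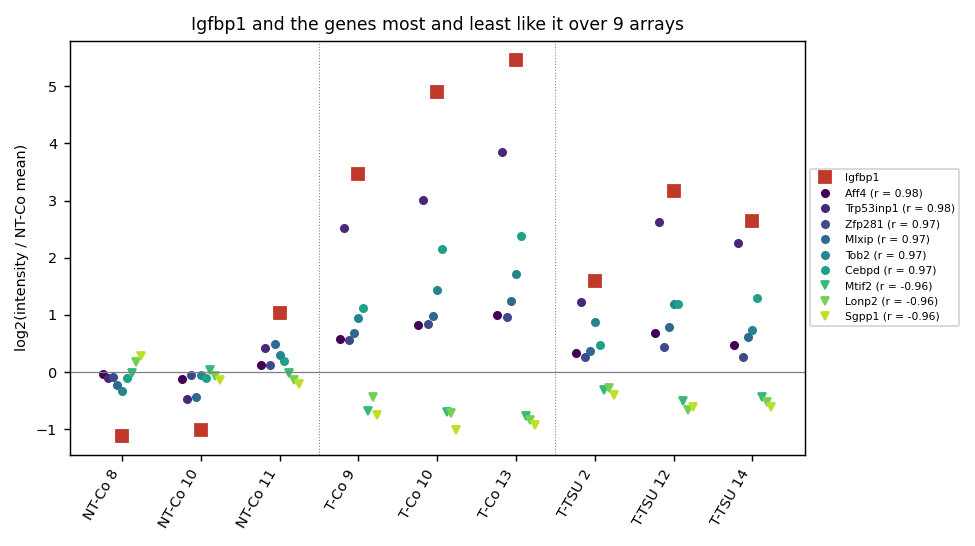
Igfbp1 (squares), the 6 genes most like it (circles) and the 3 most opposite (triangles) on each array, as log2 of the ratio to the NT-Co mean without a pseudocount. T-Co replicate 13 is the highest array for Igfbp1 and for the 6 similar genes, and T-TSU replicate 2 is the lowest T-TSU array for Igfbp1.

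Liver holds several cell types, and in bulk RNA fewer cells of a type and less RNA per cell cannot be told apart. Hepatocyte markers, which belong to the cells that make Igfbp1, Igfbp2 and Igfbp4, had 2 of 9 higher and 0 lower between T-Co and NT-Co. These calls, Cps1 and Tat, were both lost without the intensity trend. The summed intensity of the hepatocyte markers was 222100 to 243300 for NT-Co, 252900 to 270900 for T-Co and 221700 to 239100 for T-TSU. Stellate cell and fibroblast markers, beside which Igfbp3, Igfbp5, Igfbp6 and Igfbp7 may be expressed, had 0 of 12 higher and 2 lower, Col3a1 (-1.03 ± 0.20, limma adjusted p = 0.00992; 0.0537 without NT-Co replicate 8) and Lum (-0.70 ± 0.16, 0.0220). The Lum call was lost without NT-Co replicate 8, NT-Co replicate 11 or T-Co replicate 10 (highest adjusted p = 0.108). Their sum was 10120 to 11390 for NT-Co, 8841 to 9257 for T-Co and 9827 to 11520 for T-TSU, with Col1a1 under the filter. Sinusoidal endothelial markers had 2 of 12 higher and 0 lower, and a sum of 3141 to 4311, 3905 to 6374 and 2797 to 3958 in the same order. Of the 2, Pecam1 (limma adjusted p = 0.0435) read 16.1, 68.8 and 19.0 for NT-Co, near background, and its call was lost in 11 alternative settings. The other was Bmp2, higher by 1.22 (0.00709), and its call was lost in 0 alternative settings. Kupffer cell and macrophage markers had 1 of 11 higher and 0 lower, and a sum of 8497 to 11680, 11200 to 17100 and 5075 to 11080. The 1 was Cd163 (adjusted p = 0.0312), and its call was lost in 5 alternative settings. Of mesothelial markers 2 of 6 and of cholangiocyte markers 3 of 8 were bright enough to test, and none was called. Of the neutrophil markers 4 of 9 could be tested, none was called, and the sum was 439 to 628 for NT-Co, 727 to 1821 for T-Co and 421 to 625 for T-TSU. Between T-TSU and T-Co limma called no marker of these lists, but 9 of the 11 Kupffer cell and macrophage markers had an unadjusted p under 0.05, beside 10.5% of all probe sets, with a median difference of -0.87. These markers moved together on single arrays and are not separate results. T-TSU replicate 2 read 290 for C1qa, against 782 and 684 in the other T-TSU arrays, and 453 for Vsig4, against 1100 and 848.5. With 1 array left out, the difference from T-Co ran from -1.715 to -1.012 for C1qa and from -0.76 to -0.21 for Csf1r. The part of the marker shifts in the members' differences was not tested.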

How the data were processed

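Total RNA was purified and 5 µg per liver was labelled with biotin in a 1-cycle procedure, per the labels' protocols. The deposited values are linear intensities, 1 per probe set and array; the sources used here do not name the authors' summarisation software. With 2% of values trimmed at each end, the mean was 500.3 on all arrays, so the deposited intensities were already scaled. No detection calls were used. Genes were named from the platform annotation where it gave 1 gene, and coordinates and promoters are RefSeq's (GRCm38.p6).

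Intensities were analysed as log2(intensity + 7.93), the 10th percentile of all values, after 64 control probe sets were left out. Probe sets with a mean under the 30th percentile (42.0) were dropped, leaving 15838. The 9 arrays entered 1 model with a mean per group, in limma 3.58.1 under R 4.3.3 (6 residual degrees of freedom, empirical Bayes with intensity trend). P-values are two-sided, were adjusted by Benjamini-Hochberg across the 15838 probe sets, and were called under 0.05. SE values are limma's, and 95% intervals use its moderated degrees of freedom. The pipeline was tested on simulated data. The number of arrays limits the precision.

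The members, lists, tests and naming rule were chosen with earlier results of these data known. The rule named all members, 9 core IGF system genes, up to 4 genes per list and comparison by smallest p, and the 6 most and 3 least correlated genes. Second probe sets of a named gene, and the genes at ranks 8 and 9, were added after their values were seen. So were fasting genes with differences below 0. List or marker genes given for a lost call, for single arrays, for an opposite direction or to complete a count were also added then. Alternatives were the pseudocount (16 or 1), the filter (none or 50th percentile), normalization (quantile or median centring), the variance trend, the groups in the fit and leaving out each array.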

Additional observations from a re-analysis of the deposited data

How the results depend on the processing

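The count of member probe sets called between T-Co and NT-Co was 2, was 1 with the filter at the 50th percentile, which left 11 probe sets to test, and ran from 1 to 3 with 1 array left out. Between T-TSU and T-Co it was 0 under every alternative run. Between T-TSU and NT-Co it was 1, was 0 without the intensity trend and 0 with a robust trend, and ran from 0 to 1 with 1 array left out. The lists' calls fell to 14 between T-Co and NT-Co and to 6 between T-TSU and NT-Co without the intensity trend. Of the 6 genes most like Igfbp1, 3 to 6 stayed with 1 array left out, and the cause was not tested. Over all probe sets, the 1043 calls between T-Co and NT-Co became 470 with no trend in the variance, and ranged from 451 to 1015 when single arrays were dropped. The 622 between T-TSU and NT-Co became 262 and ranged from 293 to 804 in the same settings. The 8 between T-TSU and T-Co became 0 and ranged from 0 to 59, and were 0 without the filter, 1 after quantile normalization, 5 with arrays centred on their medians, 15 with a robust trend and 0 with only the 2 groups fitted.

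Differences between T-TSU and T-Co that changed sign were all far from the threshold. After quantile normalization they were 0.0123 for 1423756_s_at, 0.0376 for 1437405_a_at, 0.0217 for 1437406_x_at and 0.0146 for 1423757_x_at of Igfbp4. With 1 array left out, the ranges were -0.32 to 0.0016 for 1421992_a_at of Igfbp4, -0.57 to 0.29 and -0.65 to 0.54 for 1452114_s_at and 1422313_a_at of Igfbp5, -0.44 to 0.64 for Igfbp6, and -0.083 to 0.18 and -0.00037 to 0.86 for 1423584_at and 1437804_at of Igfbp7. For Igfbp5, T-Co minus NT-Co also changed sign, at -0.85 to 0.0022 for 1452114_s_at and -0.75 to 0.26 for 1422313_a_at. Against NT-Co, T-TSU ranged from -0.013 to 0.145 for Igfbp2, -0.018 to 0.068 and -0.022 to 0.46 for 1437405_a_at and 1421991_a_at of Igfbp4, -0.78 to 0.18 for 1422313_a_at of Igfbp5 and -0.65 to 0.42 for Igfbp6. The difference of Igfbp1 kept its direction in all 3 comparisons, at 4.52 to 5.63, -2.71 to -1.71 and 2.43 to 3.48. No paired analysis was possible because the labels mark no pairs between groups. Number 10 occurs in NT-Co and T-Co, but nothing in the labels makes these 2 samples a pair, and no other number is shared.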
